A study of Mus musculus with 12 samples.

Results

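The genes described here are 10 markers of resting fibro-adipogenic progenitors (FAPs) and of their subsets. They were chosen by name, with earlier results of these data known: Ly6a, Ly6c1, Cd34, Thy1, Gsn, Dpep1, Smoc2, Pi16, Dpp4 and Islr. Each of the 10 has a row among the 54100 genes of the count table, and all 10 passed the filter on low counts that left 8161 genes. FAPs were sorted for Pdgfra from the plantaris, a calf muscle, and RNA was counted in 12 libraries, 3 in each of 4 groups. The groups were FAPs of overloaded muscle from conditional double knockout mice (cdKO overload), of sham-operated muscle from cdKO mice (cdKO sham), of overloaded muscle from control mice (control overload) and of sham-operated muscle from control mice (control sham). All mice carried Pdgfra-CreERT2, a tamoxifen-inducible Cre recombinase expressed under Pdgfra, and the cdKO mice also carried floxed Yap1 and floxed Taz (gene symbol Wwtr1). Recombination was therefore directed to Pdgfra-expressing cells, including those sorted here, and the sort marker is the gene that drives Cre. Each tube received 1000 sorted cells, and the protocol that the labels cite (CEL-Seq2) tags the 3′ ends of transcripts. Not given in the sources used here are the age of the mice, the tamoxifen schedule, the time after surgery, the exons that were floxed and whether animals were pooled. Since nothing says that the libraries of a group came from separate animals, the p-values measure the spread between libraries, which may be technical.

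FAPs are mesenchymal cells that lie between muscle fibres and around vessels, give rise to fibroblasts and fat cells, and support muscle stem cells. In resting tissue they form overlapping states, among them adventitial cells that carry Pi16 and Dpp4 and parenchymal cells that lie among the fibres. After injury or load FAPs divide, become more contractile and deposit matrix, and many genes of the resting state are turned down. The 10 markers have unlike roles. Ly6a (Sca-1), Ly6c1, Cd34 and Thy1 (CD90) are surface proteins used to sort progenitors, and the Ly6 proteins and Thy1 are held by a lipid anchor. Gsn encodes gelsolin, which cuts and caps actin filaments and also has a secreted form. Dpep1 is a membrane dipeptidase that acts on leukotriene D4, Smoc2 is a secreted calcium-binding matrix protein of the SPARC family, and Islr (meflin) is a lipid-anchored protein with leucine-rich repeats. Pi16 belongs to the CAP family of secreted and surface proteins, and Dpp4 (CD26) is a surface peptidase that removes dipeptides from the ends of peptides.

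Library totals ran from 336437 to 1564581 counts, so that 3 counts correspond to 1.95 to 9.72 CPM (counts scaled to library size, with TMM factors on the tested genes). Wwtr1 lay between 18.2 and 40.6 CPM in cdKO libraries and between 108 and 174 CPM in control libraries, with no overlap. Yap1 lay between 22.1 and 71.5 CPM in cdKO libraries and between 39.7 and 108.1 CPM in control libraries, which overlap. The log2 fold change of cdKO over control was -2.78 ± 0.28 under overload (adjusted p = 1.83e-06, edgeR) and -1.74 ± 0.27 in sham (adjusted p = 0.00733) for Wwtr1. It was -0.85 ± 0.32 (adjusted p = 0.586) and -0.61 ± 0.30 (adjusted p = 0.999) for Yap1, which passed under neither load. Tags of the transcript end need not lie in the deleted part, so these values are only a partial check of the knockout. Mesenchymal markers were present in every library, with Pdgfra at 259 to 899.6 CPM and with Dcn, Lum and Col1a1 counted throughout, although the FAP transcription factor Tcf21 had no count in 7 of 12 libraries. Among 12 endothelial markers, Flt1 reached 100.5 CPM and Tek 72.5 CPM, both counted in all 12 libraries, while Pecam1 reached 22.7 CPM and Cldn5 had no count in 6. Summed Y-linked counts came to 72.7 and 88.7 CPM in control overload replicates 2 and 3, against 131 to 337 CPM in the other 10 libraries.

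The 10 genes lie on 6 chromosomes in the mouse build GRCm38, and Ly6a (chromosome 15, 74994877 to 74998031, minus strand) and Ly6c1 (chromosome 15, 75044018 to 75048830, minus strand) are neighbours in the Ly6 cluster. Over the last 300 bases of the transcript, where a 3′ protocol reads, Ly6c1 was 93.5% identical to its close relative Ly6c2, and Ly6a was 80.1% identical to Ly6c1. Counts of Ly6c1 and Ly6c2 may therefore be split or shared in counting and are uncertain. The annotated span of Islr holds the gene Islr2 on the same strand, with 88 counts over the 12 libraries against 920 for Islr, and Dpp4 has an antisense partner, Gm13561, with 15 counts against 188. Whether the counting used strand is not stated.

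Promoters are shown for 3 of the markers, because Islr and Dpep1 had the smallest p-values of the 10 for overload in control FAPs and Dpp4 held 2 kinds of motif match. RefSeq (GRCm38.p6) lists starts for 7 of the 10 genes, 10 starts in all, and Ly6a, Thy1 and Smoc2 are only named here. The sequences are the 250 bases before the start, 5′ to 3′ on the gene's strand, with matches in capitals: Dpep1 at chr8:123185985-123186234 (plus strand), Dpp4 at chr2:62412232-62412481 (minus strand) and Islr at chr9:58158555-58158804 (minus strand), a start inside the span annotated for Islr.
Dpep1: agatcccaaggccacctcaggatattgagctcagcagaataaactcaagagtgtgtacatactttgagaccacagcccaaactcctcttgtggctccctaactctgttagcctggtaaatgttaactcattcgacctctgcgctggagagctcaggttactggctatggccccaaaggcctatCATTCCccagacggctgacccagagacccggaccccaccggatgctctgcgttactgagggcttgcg
Dpp4: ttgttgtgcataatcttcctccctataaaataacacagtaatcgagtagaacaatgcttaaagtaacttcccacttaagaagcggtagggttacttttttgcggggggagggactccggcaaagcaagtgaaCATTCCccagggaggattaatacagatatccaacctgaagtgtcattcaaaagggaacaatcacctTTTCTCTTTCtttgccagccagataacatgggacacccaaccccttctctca
Islr: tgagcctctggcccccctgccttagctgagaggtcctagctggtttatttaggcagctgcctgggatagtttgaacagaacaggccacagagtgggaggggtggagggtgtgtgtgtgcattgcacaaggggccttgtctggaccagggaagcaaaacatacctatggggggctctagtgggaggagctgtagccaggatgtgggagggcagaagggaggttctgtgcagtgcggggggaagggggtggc
Capitals mark GGAATG, the core motif of TEAD factors, which are DNA-binding partners of Yap1 and Taz, and the core of the interferon-stimulated response element, both searched on either strand. Dpep1 held 1 TEAD match, 67 to 62 bases before the start, and Dpp4 held 1 TEAD match at 118 to 113 bases and 1 interferon element match at 52 to 43 bases, all on the reverse strand. The windows of the other 5 genes with an entry held neither. Of all 32851 promoter windows of this length, 12.6% held the TEAD letters and 2.98% the interferon element. No window of the markers held TGANTCA, the AP-1 motif found in 6.75% of all windows, or the CArG box found in 1.47%. A match is a description of these letters only.

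Markers that passed the test under overload were lower than in sham in both genotypes. In cdKO FAPs 5 of the 10 fell (Gsn, Dpep1, Smoc2, Pi16 and Islr), and in control FAPs 9 of the 10 fell, all but Ly6a. No marker rose in either genotype. Over all tested genes 6.68% passed as lower and 6.37% as higher in cdKO FAPs, and 11.0% as lower and 10.6% as higher in control FAPs (edgeR quasi-likelihood test, Benjamini-Hochberg adjusted p under 0.05 over 8161 genes). The median log2 fold change of the 10 was -1.19 in cdKO FAPs and -1.65 in control FAPs, against -0.02 and -0.05 for all tested genes. The markers were chosen with earlier results of these data known, so these comparisons with all tested genes are not independent. Since these are bulk samples of sorted cells, fewer cells of a subset and less RNA per cell cannot be told apart.

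**Figure D1:**
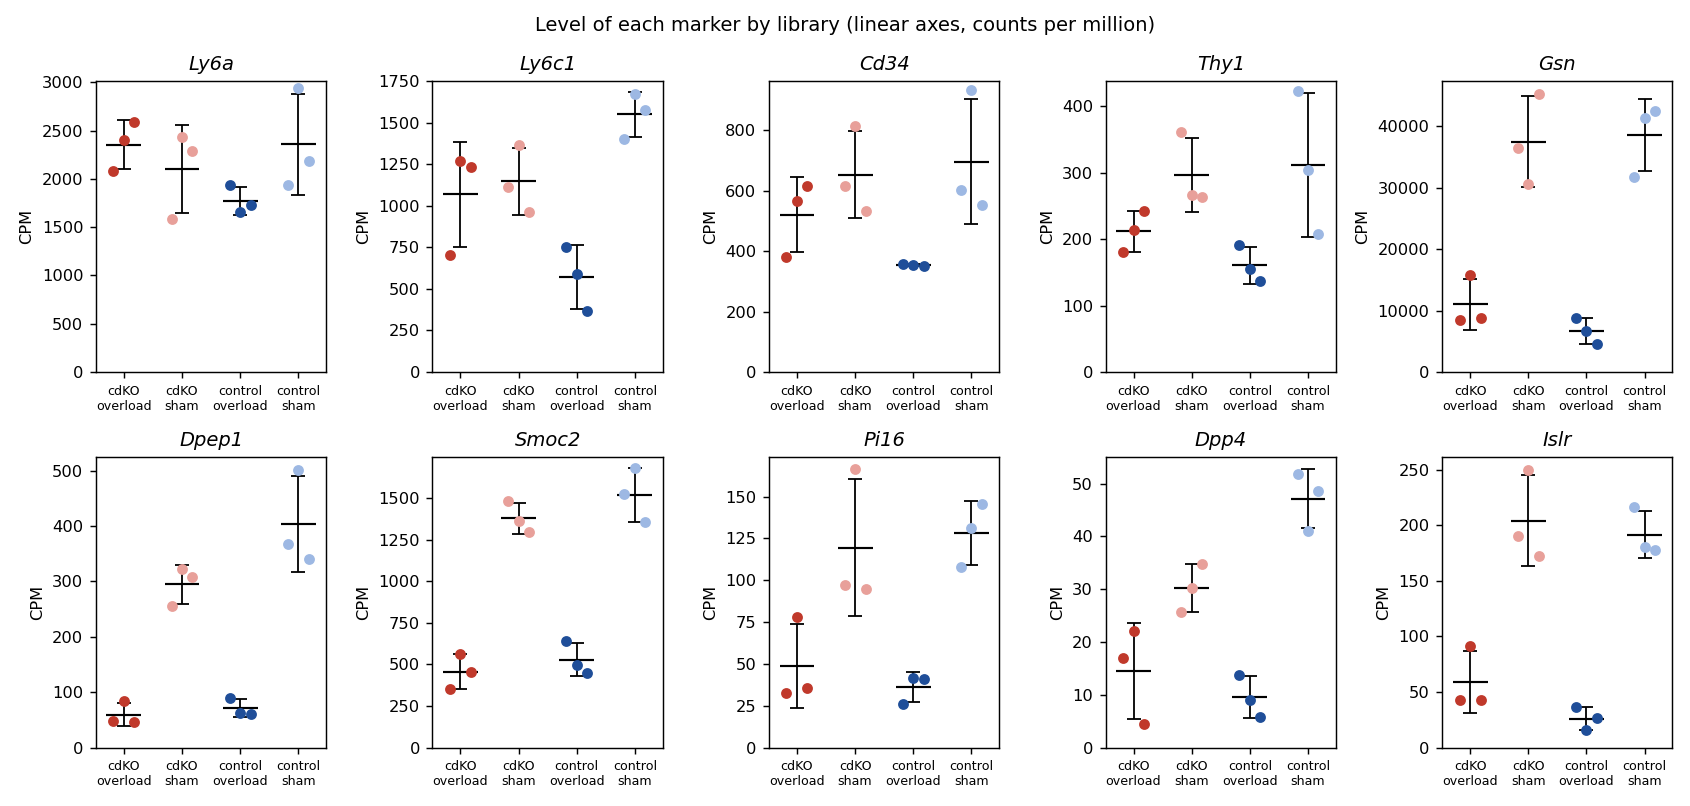
Level of each marker in CPM (linear axes that start at 0), one panel a gene, with 1 point a library, a bar at the mean and whiskers of 1 SD (n = 3 a group). Gsn, Dpep1, Smoc2, Pi16, Dpp4 and Islr are lower in all 6 overload libraries than in all 6 sham libraries, whereas cdKO overload and cdKO sham overlap for Ly6a, Ly6c1 and Cd34.

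Among the surface antigens, Ly6a passed the test in neither genotype. It had 2078, 2403 and 2589 CPM in cdKO overload, against 1588, 2436 and 2289 CPM in cdKO sham. In control mice it had 1933, 1658 and 1727 CPM under overload, against 1935, 2946 and 2190 CPM in sham. The cdKO groups overlapped, and the control groups were separated only by the narrow gap between 1933 and 1935 CPM. The log2 fold change of Ly6a was 0.16 ± 0.25 (SE; adjusted p = 0.743, edgeR) in cdKO FAPs, with a 95% interval of -0.34 to 0.66, and -0.41 ± 0.26 (adjusted p = 0.257) in control FAPs, with an interval of -0.91 to 0.09.

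For Ly6c1 the genotypes gave unlike values. Its level was 703, 1270.22 and 1232 CPM in cdKO overload and 1115, 1364 and 963 CPM in cdKO sham. Under overload in control mice it was 753, 589 and 370.06 CPM, against 1403, 1671 and 1575 CPM in control sham. The cdKO groups overlapped, with only replicate 1 of cdKO overload below every sham library, while each control overload library lay below each control sham library. The log2 fold change was -0.10 ± 0.28 (adjusted p = 0.865, edgeR) in cdKO FAPs, interval -0.65 to 0.44, and Ly6c1 fell by 1.44 ± 0.29 on the log2 scale in control FAPs (adjusted p = 7.47e-04). Ly6c2, whose transcript end is nearly the same, averaged 33.9 CPM in cdKO overload, 15.5 in cdKO sham, 27.2 in control overload and 33.9 in control sham, and passed in neither genotype.

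Cd34 (chromosome 1, 194938819 to 194961279, plus strand) is a sialomucin of progenitors and vessels. It had 380.07, 567 and 614 CPM in cdKO overload, against 614, 813 and 533 CPM in cdKO sham. In control overload it had 358, 354 and 350.2 CPM, against 601, 934 and 554 CPM in control sham. The 3 control overload libraries were close together and below all others, and the cdKO groups overlapped. The log2 fold change was -0.33 ± 0.26 (adjusted p = 0.449, edgeR) in cdKO FAPs, interval -0.84 to 0.18, and Cd34 fell by 0.98 ± 0.26 in control FAPs (adjusted p = 0.00888). That call was lost without the filter on low counts (adjusted p = 0.0818) and without control sham replicate 2 (adjusted p = 0.0889).

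Thy1 lies on chromosome 9 (44043384 to 44048579, plus strand). It had 181, 213 and 242.5 CPM in cdKO overload, against 361, 267 and 263 CPM in cdKO sham. Its control values were 191, 154 and 137 CPM under overload and 423, 303 and 207 CPM in sham. Neither pair of groups overlapped, though the highest overload library came close to the lowest sham library in both. The log2 fold change was -0.48 ± 0.26 (adjusted p = 0.235, edgeR) in cdKO FAPs, interval -0.98 to 0.02, and Thy1 fell by 0.97 ± 0.26 in control FAPs (adjusted p = 0.00916). The control call of Thy1 is the least firm of the 9: adjusted p was 0.113 without the filter, 0.183 with counts thinned to the smallest library, 0.109 with the Y-linked level as a covariate, 0.0919 with control sham replicate 1 left out and 0.0564 with control overload replicate 3 left out.

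Ly6a, Ly6c1 and Cd34 are also made by endothelial cells, so endothelial markers are given beside them. Of 12 such markers 7 were tested, and 2 fell in cdKO FAPs (Tek and Tie1) and 1 in control FAPs (Tek). Their summed level was 52.5 to 83.2 CPM in cdKO overload and 119 to 309 CPM in cdKO sham, and 23.4 to 179 CPM in control overload and 142 to 295 CPM in control sham. Cldn5 and Erg each had no count in 6 of 12 libraries, and Cdh5 had none in 2. The part of endothelial RNA in the levels of Ly6a, Ly6c1 and Cd34 was not tested.

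The matrix and enzyme genes, with gelsolin, fell in both genotypes. Gsn (chromosome 2, 35256380 to 35307892, plus strand), by count the most abundant of the 10, had 8416, 15860.2 and 8851 CPM in cdKO overload, against 36425, 30623 and 45325 CPM in cdKO sham. In control mice it had 8796, 6599 and 4542 CPM under overload, against 31810.2, 41370.1 and 42434 CPM in sham. Every overload library lay below every sham library, and cdKO overload replicate 2 was the highest of the 6 overload libraries. Gsn fell in both genotypes, with a log2 fold change of -1.76 ± 0.32 in cdKO FAPs (adjusted p = 0.000645, edgeR) and -2.54 ± 0.32 in control FAPs (adjusted p = 5.74e-06). This single gene took 1.05% of all counts in cdKO overload, 3.46% in cdKO sham, 0.654% in control overload and 3.62% in control sham, as group means.

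Dpep1 (chromosome 8, 123186242 to 123201812, plus strand) was low in all overload libraries. It had 47.9, 84.5 and 47.2 CPM in cdKO overload, against 255, 322 and 307 CPM in cdKO sham. In control overload it had 89.6, 63.0 and 60.7 CPM, against 367, 502 and 340.2 CPM in control sham. The highest overload library, at 89.6 CPM, lay far below the lowest sham library, at 255 CPM. Dpep1 fell in both genotypes, with a log2 fold change of -2.30 ± 0.27 in cdKO FAPs (adjusted p = 5.57e-06, edgeR) and -2.53 ± 0.27 in control FAPs (adjusted p = 4.73e-07), and it ranked 12 and 18 by p among the 8161 genes.

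Smoc2 (chromosome 17, 14279506 to 14404790, plus strand) gave nearly equal folds in the 2 genotypes. Its level was 354, 564 and 454 CPM in cdKO overload, against 1479, 1361 and 1293 CPM in cdKO sham. In control overload it was 639, 498.5 and 449 CPM, against 1527, 1677 and 1354 CPM in control sham. The load groups were wide apart, while the genotypes overlapped under both loads. Smoc2 fell in both genotypes, with a log2 fold change of -1.59 ± 0.25 in cdKO FAPs (adjusted p = 0.000196, edgeR) and -1.53 ± 0.25 in control FAPs (adjusted p = 0.000107).

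Islr (chromosome 9, 58156268 to 58204306, minus strand) had the largest fall of the 10 in control FAPs. It had 43.3, 91.0 and 42.7 CPM in cdKO overload, against 191, 249.9 and 172 CPM in cdKO sham. In control mice it had 36.2, 15.6 and 26.9 CPM under overload, against 216, 180.5 and 178 CPM in sham. The load groups did not overlap in either genotype, and the 3 cdKO overload libraries all lay above the 3 control overload libraries. Islr fell in both genotypes, with a log2 fold change of -1.80 ± 0.30 in cdKO FAPs (adjusted p = 0.000334, edgeR) and -2.95 ± 0.33 in control FAPs (adjusted p = 8.12e-07).

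The adventitial pair, Pi16 and Dpp4, also fell in control FAPs. Pi16 (chromosome 17, 29317680 to 29330593, plus strand) had 32.4, 78.0 and 35.9 CPM in cdKO overload, against 97.2, 167 and 94.7 CPM in cdKO sham. In control overload it had 25.8, 41.5 and 40.9 CPM, against 108, 131 and 146 CPM in control sham. The load groups did not overlap in either genotype. Pi16 fell in both genotypes, with a log2 fold change of -1.31 ± 0.31 in cdKO FAPs (adjusted p = 0.00713, edgeR) and -1.78 ± 0.32 in control FAPs (adjusted p = 0.000337). In cdKO FAPs the call was lost without cdKO sham replicate 2 (adjusted p = 0.0757), without cdKO overload replicate 1 (0.0556) and without cdKO overload replicate 3 (0.0626), and in control FAPs the log2 fold change was -2.66 with the Y-linked level as a covariate (adjusted p = 8.41e-05).

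Dpp4 (chromosome 2, 62330073 to 62412231, minus strand) was the scarcest marker, with 4 to 30 counts a library. It had 17.0, 22.1 and 4.49 CPM in cdKO overload, against 25.7, 30.2 and 34.8 CPM in cdKO sham. In control overload it had 13.8, 9.09 and 5.84 CPM, against 51.8, 41.0 and 48.6 CPM in control sham. Each overload library lay below each sham library of its genotype, by little in cdKO mice. The log2 fold change was -1.08 ± 0.43 (adjusted p = 0.0971, edgeR) in cdKO FAPs. Its interval of -1.92 to -0.24 excludes 0, although the adjusted p missed the threshold. Dpp4 fell by 2.32 ± 0.44 in control FAPs (adjusted p = 0.000515). Without cdKO overload replicate 2 the cdKO change was -1.56 and passed (adjusted p = 0.0319).

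**Figure D2:**
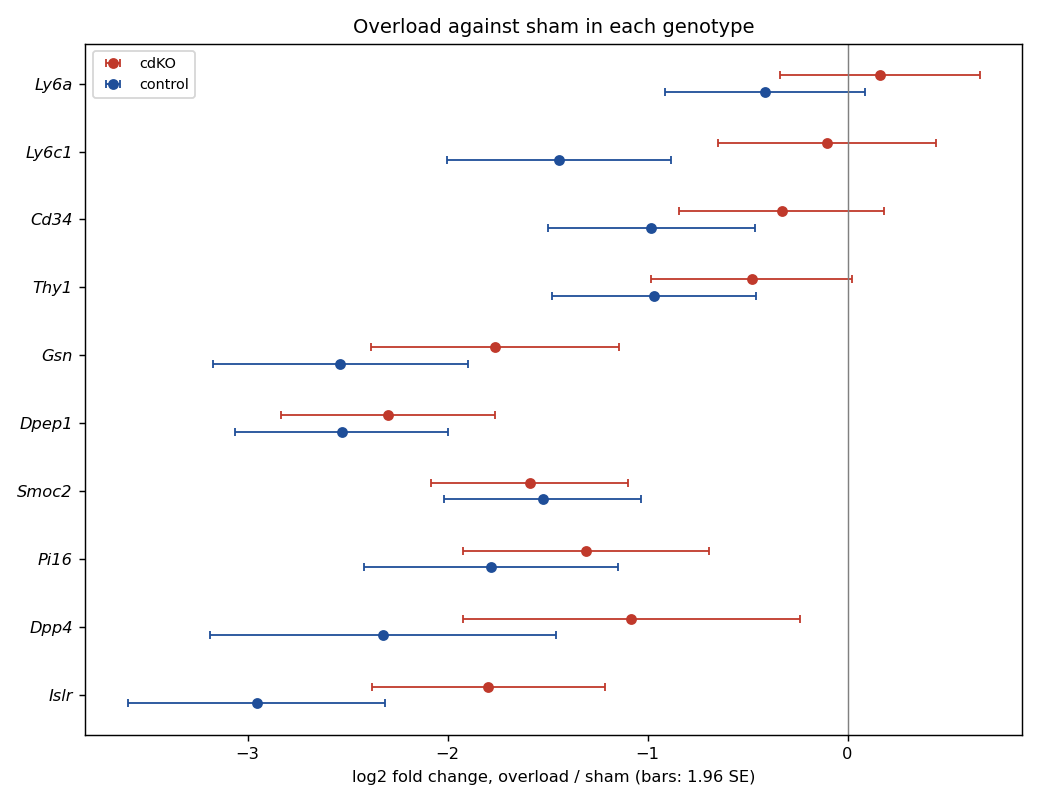
Log2 fold change of overload over sham for each marker, cdKO above control, with bars of 1.96 SE. Gsn, Dpep1, Smoc2, Pi16 and Islr lie left of 0 in both genotypes, and the cdKO bars of Ly6a, Ly6c1, Cd34 and Thy1 include 0.

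The overload fold changes were also summarised over groups of markers that were set by hand. The median log2 fold change of Ly6a, Ly6c1, Cd34 and Thy1 was -0.22 in cdKO FAPs and -0.97 in control FAPs. For Gsn, Dpep1, Smoc2 and Islr it was -1.78 and -2.53, and for Pi16 and Dpp4 it was -1.19 and -2.05, in the same order of genotypes. Expressed as the overload mean in percent of the sham mean, Ly6a was at 112% in cdKO and 75.2% in control, Ly6c1 was at 93.1% in cdKO and 36.8% in control, Cd34 at 79.6% and 50.9%, and Thy1 at 71.5% and 51.6%. Gsn was at 29.5% in cdKO and 17.2% in control, Islr at 28.9% and 13.7%, Pi16 at 40.8% and 28.1%, and Dpp4 at 48.1% and 20.3%. Dpep1 was at 20.3% in cdKO and 17.6% in control, and Smoc2 at 33.2% and 34.8%, so that these 2 genes kept nearly the same share in both genotypes.

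**Figure D3:**
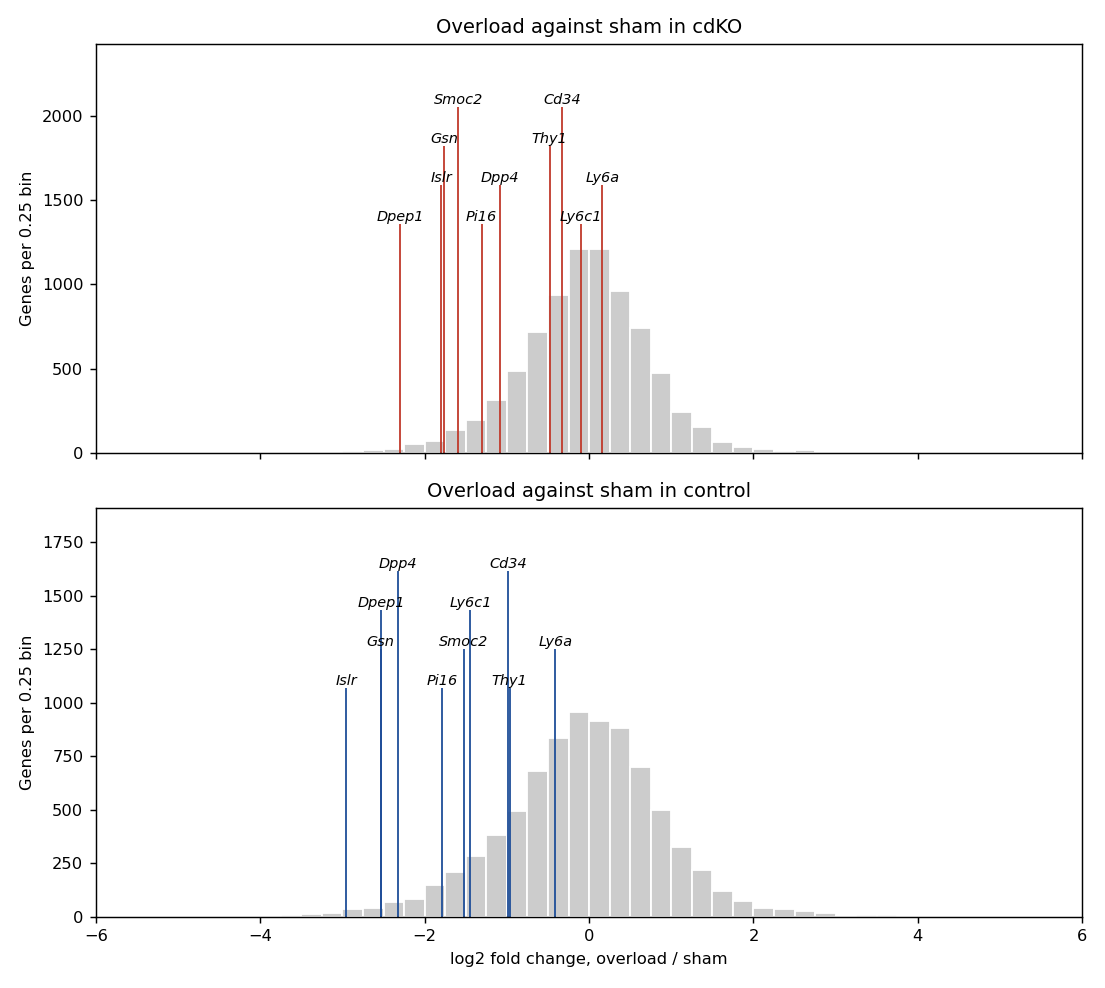
Histogram of log2 fold changes of overload over sham for all 8161 tested genes (grey, bins of 0.25), with a line for each marker, cdKO above control; line heights only separate the names. In control all 10 markers lie below 0, and in cdKO Ly6a lies above 0 and Ly6c1 close to it.

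Groups that did not overlap were also counted, without a model. In cdKO mice 7 of the 10 markers (Thy1, Gsn, Dpep1, Smoc2, Pi16, Dpp4 and Islr) were lower in each overload library than in each sham library, as were 14.7% of all tested genes. In control mice all 10 were, as were 18.9% of all tested genes. Over both genotypes together, 6 against 6, the 6 markers Gsn, Dpep1, Smoc2, Pi16, Dpp4 and Islr did not overlap, against 6.75% of all tested genes. The 10 markers together took 1.15% to 2.05% of all counts in cdKO overload and 3.54% to 4.74% in cdKO sham, and 0.760% to 1.26% in control overload and 3.81% to 4.58% in control sham. Without Gsn these shares were 0.359% to 0.512%, 0.518% to 0.660%, 0.312% to 0.397% and 0.605% to 0.773%, in the same order.

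Between the genotypes, no marker passed the test under overload. In that comparison 0.0368% of all tested genes passed in either direction (3 genes). Log2 fold changes of cdKO over control under overload were above 0 for 8 of the 10 markers and for 53% of all tested genes. The median was 0.48 for the markers against 0.03 for all tested genes. The markers were read in the same libraries, so their signs are not independent. Of the 10, 4 had an unadjusted p under 0.05 in edgeR, as had 569 genes in all, and DESeq2 called none of the 10. These were Islr at 1.26 ± 0.34 (adjusted p = 0.304), Ly6c1 at 0.91 ± 0.28 (adjusted p = 0.442), Gsn at 0.73 ± 0.31 (adjusted p = 0.644) and Cd34 at 0.56 ± 0.26 (adjusted p = 0.702). Islr averaged 59.0 ± 27.7 CPM in cdKO overload and 26.2 ± 10.3 CPM in control overload (SD, n = 3 each). Ly6c1 averaged 1068 ± 317 CPM in cdKO overload and 571 ± 192 CPM in control overload, with replicate 1 of cdKO overload inside the control range.

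The other markers gave smaller or less certain values under overload. Ly6a was at 0.41 ± 0.25, Thy1 at 0.41 ± 0.26, Pi16 at 0.40 ± 0.33 and Dpp4 at 0.61 ± 0.48, on the log2 scale with SE. Dpep1 at -0.23 ± 0.28 and Smoc2 at -0.21 ± 0.25 were the only 2 below 0. The intervals of these 6 include 0, which does not show that the genotypes were alike. Ly6a, Cd34 and Islr were higher in each cdKO overload library than in each control overload library, as were 5.38% of all tested genes.

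In sham muscle no marker passed either, and 0.0123% of all tested genes did (1 gene, Wwtr1). None of the 10 had an unadjusted p under 0.05 in edgeR, against 334 genes in all, and DESeq2 called none of the 10. The log2 fold changes of cdKO over control in sham ran between -0.63 ± 0.40 for Dpp4 and 0.10 ± 0.28 for Islr, with a median of -0.12. Ly6c1 averaged 1147 ± 203 CPM in cdKO sham and 1549 ± 136 CPM in control sham. Dpep1 averaged 295 ± 35.2 CPM in cdKO sham and 403 ± 86.6 CPM in control sham. For Ly6c1, Dpep1 and Dpp4 each cdKO sham library lay below each control sham library, as for 4.45% of all tested genes. Averaged over both loads, 0 of the 10 passed, against 0.0123% of all tested genes, and the 1 marker with an unadjusted p under 0.05 was Islr (0.68 ± 0.22, adjusted p = 0.732, edgeR), against 434 genes in all.

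The difference between the overload effects, cdKO minus control, was tested as an interaction. No marker passed, and 0% of all tested genes did, while 2 markers and 427 genes in all had an unadjusted p under 0.05 in edgeR. DESeq2 called 1 gene in all and none of the 10. The largest values were 1.34 ± 0.40 for Ly6c1 (95% interval 0.56 to 2.12, adjusted p = 0.601, edgeR), 1.24 ± 0.62 for Dpp4 (adjusted p = 0.931) and 1.16 ± 0.44 for Islr (adjusted p = 0.884). Gsn was at 0.77 ± 0.43, Cd34 at 0.65 ± 0.37, Ly6a at 0.58 ± 0.36, Thy1 at 0.49 ± 0.37, Pi16 at 0.48 ± 0.45 and Dpep1 at 0.23 ± 0.38. Smoc2 was the only marker below 0, at -0.06 ± 0.35 with an interval of -0.75 to 0.62. The 4 markers that passed in control FAPs alone (Ly6c1, Cd34, Thy1 and Dpp4) are thus not shown to differ between the genotypes in their response.

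**Figure D4:**
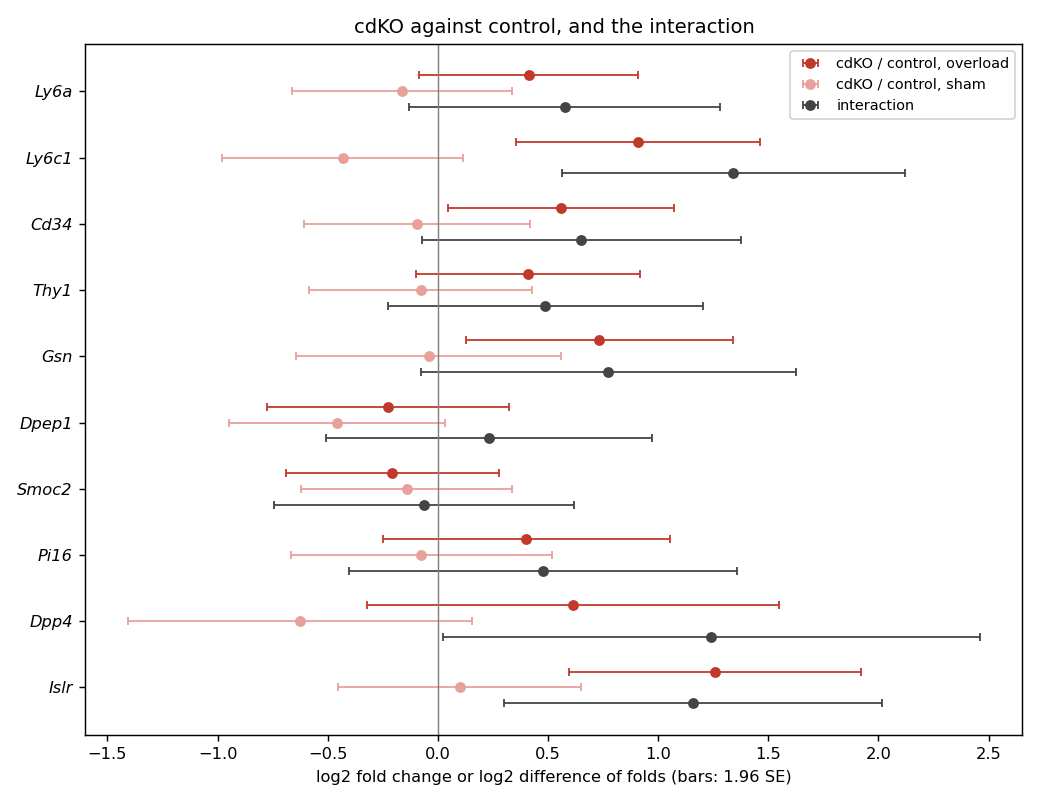
For each marker, log2 fold change of cdKO over control under overload and in sham, and the interaction (overload effect in cdKO minus that in control), with bars of 1.96 SE. The interaction of 9 of the 10 markers lies right of 0, as does that of 51.7% of all tested genes, and none passed after adjustment over all genes.

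In the overload groups most markers were highest in the same library. In control overload replicate 1 was the highest of the 3 for 9 of the 10 markers, all but Pi16, and replicate 3 the lowest for 7. In cdKO overload replicate 2 was the highest for 7 (Ly6c1, Gsn, Dpep1, Smoc2, Pi16, Dpp4 and Islr) and replicate 1 the lowest for 7, while replicate 3 was the highest for Ly6a, Cd34 and Thy1. The overload libraries also differed in 20 genes of activated fibroblasts, such as Postn and Tnc, which code for matrix proteins. Of the 19 tested, 16 rose and 0 fell in cdKO FAPs, and 17 rose and 1 (Fap) fell in control FAPs. Their summed level was 22327, 13614 and 28679 CPM in cdKO overload, against 2506, 2145 and 2536 CPM in cdKO sham, and 24369, 34374 and 28657 CPM in control overload, against 2061, 2775 and 2521 CPM in control sham. The summed level of the 10 markers was 12252, 21153 and 14112 CPM in cdKO overload, against 42150.4, 37632 and 51274 CPM in cdKO sham, and 12836, 9982 and 7709 CPM in control overload, against 38442, 49756 and 49027 CPM in control sham. Replicate 2 of cdKO overload thus had the highest marker sum and the lowest activation sum of the 6 overload libraries. The lowest marker sums did not go with the highest activation sums. In control overload replicate 3 had the lowest marker sum and replicate 2 the highest activation sum. In cdKO overload these were replicates 1 and 3. Gsn alone gave 15860 of the 21153 CPM of markers in that library, and most of the marker sum in every other library. The marker sum therefore mainly follows this single gene. The part of activation in the marker levels was not tested.

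**Figure D5:**
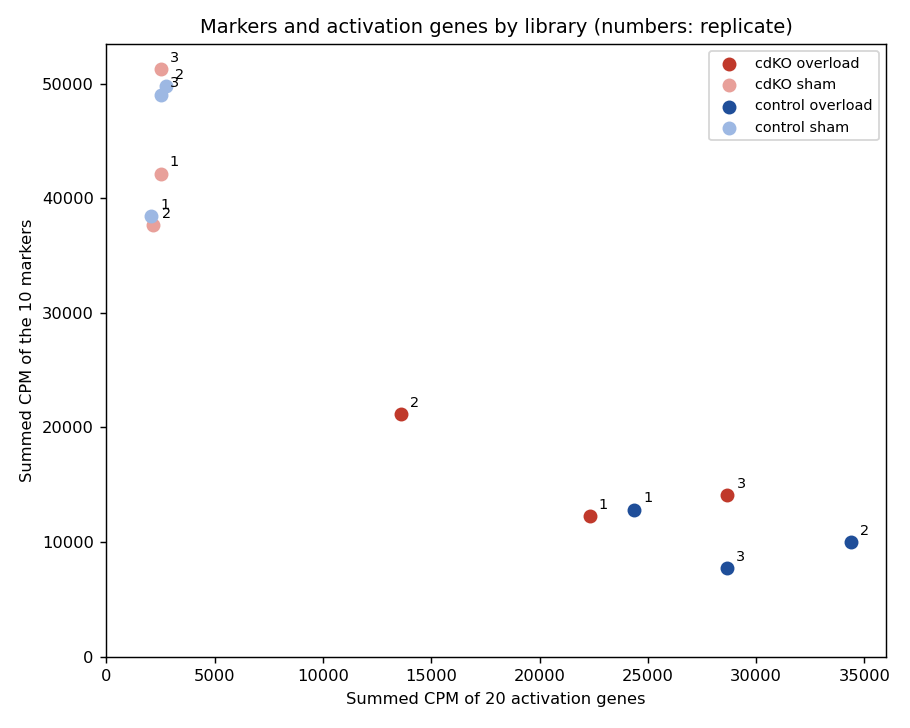
Summed level of the 10 markers (vertical, CPM) against the summed level of 20 genes of activated fibroblasts (horizontal, CPM), 1 point a library, linear axes. The 6 sham libraries lie at the upper left between 37632 and 51274 CPM of markers, and cdKO overload replicate 2 lies between them and the other 5 overload libraries. Gsn makes up most of the marker sum in every library.

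The sort marker itself moved with load. Pdgfra averaged 324 ± 66.0 CPM in cdKO overload and 686 ± 186 CPM in cdKO sham, and 376 ± 67.3 CPM in control overload and 522 ± 74.1 CPM in control sham. It fell by 1.09 ± 0.26 in cdKO FAPs (adjusted p = 0.00620, edgeR), and its log2 fold change was -0.48 ± 0.26 in control FAPs (adjusted p = 0.186). Mesenchymal genes as a list, Pdgfra included, went both ways: of 22 tested, 5 rose and 6 fell in cdKO FAPs, and 6 rose and 5 fell in control FAPs. Dcn, a collagen-binding proteoglycan, fell, with log2 fold changes of -1.49 ± 0.29 in cdKO FAPs and -2.32 ± 0.30 in control FAPs, whereas Col3a1, a fibrillar collagen, rose by 1.39 ± 0.27 and 1.53 ± 0.27. Among markers of other cells, leukocyte genes summed to 16.8 to 66.3 CPM in cdKO overload, 26.0 to 60.5 in cdKO sham, 11.7 to 74.1 in control overload and 46.5 to 71.3 in control sham, with Lyz2 at 0 in 11 libraries. Pericyte and smooth muscle genes summed to 119 to 151, 244 to 302, 110 to 169 and 230 to 330.5 CPM, in the same order, and tendon genes to 3730 to 4060, 222 to 499, 2372 to 5120 and 112 to 428 CPM, with Thbs4, a matrix protein of tendon, the one tested tendon gene that rose, at 92.96 to 5102 CPM over the 12 libraries. In control overload replicate 2 Thbs4 gave 5102 of the 5120 CPM of tendon genes. Scx reached only 19.1 CPM and Tnmd 8.98 CPM, each with no count in 2 libraries. The other 2 tendon genes tested, Fmod and Kera, passed in neither genotype. The part of all these other cells in the marker levels was not tested.

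Wider lists of the resting subsets were counted in the same way. Of 27 tested genes of adventitial FAPs other than the 10 markers, 11 fell and 3 rose in cdKO FAPs (median -0.43), and 15 fell and 2 rose in control FAPs (median -1.16). The summed level of the list went the other way in cdKO mice, with 13030 to 14784 CPM in cdKO overload and 11327 to 12642 CPM in cdKO sham. It was 10135 to 11184 CPM in control overload and 13472 to 16062 CPM in control sham. A sum is weighted to abundant genes such as Mfap5, at 1517 to 5068 CPM over the 12 libraries. Mfap5 rose by 1.43 ± 0.25 in cdKO FAPs and by 1.01 ± 0.25 in control FAPs. The part of single genes in the sum was not tested. Efhd1, a calcium-binding protein of mitochondria, fell, with log2 fold changes of -1.86 ± 0.27 in cdKO FAPs and -3.03 ± 0.30 in control FAPs. Pcsk6, a protease that activates secreted precursors, fell as well, at -2.02 ± 0.30 and -2.61 ± 0.31. Procr, the endothelial protein C receptor, fell by 1.69 ± 0.34 in control FAPs (adjusted p = 0.00113, edgeR), and its log2 fold change was 0.87 ± 0.33 in cdKO FAPs (adjusted p = 0.0853). Sema3c, a secreted guidance protein, fell in control FAPs (adjusted p = 0.00565) and had a log2 fold change of 0.05 ± 0.24 in cdKO FAPs (adjusted p = 0.934). Under overload, cdKO over control was 1.43 ± 0.33 for Procr (adjusted p = 0.294) and 0.93 ± 0.25 for Sema3c (adjusted p = 0.304).

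Of 28 tested genes of parenchymal FAPs, 16 fell and 2 rose in cdKO FAPs (median -1.45), and 19 fell and 3 rose in control FAPs (median -1.46). The list summed to 8541 to 13183 CPM in cdKO overload and 16217 to 24830 CPM in cdKO sham, and to 8181 to 10932 CPM in control overload and 16960 to 21829 CPM in control sham. Enpp2, the enzyme autotaxin that makes lysophosphatidic acid, fell, with log2 fold changes of -2.38 ± 0.33 in cdKO FAPs and -2.98 ± 0.34 in control FAPs. Hsd11b1, which reactivates glucocorticoids, fell as well, at -1.51 ± 0.24 and -1.83 ± 0.24. Cxcl14, a chemokine, went the other way and rose by 0.75 ± 0.25 and 1.80 ± 0.25. Neither list had a gene that passed between the genotypes under either load or in the interaction.

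The markers' own families were also followed. Of 50 relatives (Ly6, podocalyxin, gelsolin, dipeptidase, SPARC, CAP, dipeptidyl peptidase and Islr families) 21 were tested, of which 4 fell and 2 rose in cdKO FAPs and 7 fell and 3 rose in control FAPs. Fap, the closest relative of Dpp4 and itself a marker of activated fibroblasts, fell by 1.88 ± 0.36 in control FAPs (adjusted p = 0.00054, edgeR) and had a log2 fold change of -0.24 ± 0.35 in cdKO FAPs (adjusted p = 0.726). Crispld2, a secreted CAP protein like Pi16, fell, with log2 fold changes of -1.59 ± 0.24 in cdKO FAPs and -1.69 ± 0.24 in control FAPs. Sparcl1, a relative of Smoc2, fell as well, at -1.50 ± 0.29 and -1.51 ± 0.29. Other relatives went the other way. Sparc, of the same family as Smoc2, rose by 0.94 ± 0.25 in cdKO FAPs and 1.30 ± 0.25 in control FAPs. Capg, of the gelsolin family, rose by 0.84 ± 0.25 and 1.21 ± 0.27. Glipr2, of the CAP family, rose by 1.50 ± 0.33 in control FAPs (adjusted p = 0.00199, edgeR). In cdKO FAPs its log2 fold change was 0.94 ± 0.32 (adjusted p = 0.0568). Ly6e, a relative of Ly6a that was 46% identical to it over the last 300 bases, was at -0.23 ± 0.25 and -0.31 ± 0.25 and passed in neither genotype.

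Likeness of profiles was measured as the root mean square difference of log2 CPM over the 12 libraries, each gene centred on its own mean. Among the markers the closest pairs were Cd34 and Thy1 (0.326), Ly6c1 and Cd34 (0.330) and Ly6a and Cd34 (0.334), and the farthest was Ly6a and Islr (1.23). Gsn was closest to Islr (0.422), and Smoc2 to Pi16 (0.433). Among all tested genes the nearest to Gsn was Ifi207 (0.236), followed by Ramp2 and Lrrn4cl. The nearest to Dpep1 were Col6a6, Cdkn1c and Gstm1, and the nearest to Smoc2 were Hsd11b1, Plpp3 and Cdkn1a. Islr was nearest to Thra (0.292), Efhd1 and Spock2, and Pi16 to Ppp1r15a (0.273), Gpc3 and Rasl11b. Dpp4 had the most distant first neighbour, Stat2 (0.357), followed by Hmcn2 and Sun2. The first neighbours of the surface antigens were Atf5 (0.153) for Cd34, Psme1 (0.172) for Ly6a, Cd81 (0.190) for Thy1 and Btd (0.257) for Ly6c1. That of Smoc2, Hsd11b1, was at 0.187. The measure is not scaled to a gene's spread, so genes that change little lie close to many others.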

How the data were processed

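RNA of sorted FAPs was measured in 12 libraries. The deposited table holds each gene's raw counts. The submitters' processing notes name the build GRCm38, featureCounts 2.0.1, HISAT2 2.2.1, Trim Galore 0.6.6 and DESeq2 1.26.0. Not stated are the annotation release, the strand setting and whether molecular identifiers were used. Library totals of 336437 to 1564581 counts limit the precision of scarce genes, above all Dpp4. Within groups no pair of libraries was within sampling noise (3.23 to 19.2 for chi-square over its degrees of freedom), so each counted as 1 sample.

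Samples were grouped by their labels. Genes were filtered with filterByExpr, scaled by TMM and fitted with 1 mean per group over all 12 libraries in a robust quasi-likelihood model (edgeR 4.0.16, R 4.3.3), with two-sided tests and Benjamini-Hochberg adjustment over 8161 genes. A standard error is |log2 fold change| over √F, and intervals are 1.96 SE. This normal multiplier makes the intervals narrower than the F test implies, so the 2 can disagree. For the Dpp4 interaction the interval, 0.02 to 2.46, excludes 0 although the unadjusted p is 0.0569 (edgeR). The test was tried on simulated counts. Alternatives were DESeq2 1.42.0, its size factors, no filter, a replicate block, only the groups compared, thinning, a Y-linked covariate and each library left out. Genes named are the 10 markers, Pdgfra, Yap1, Wwtr1, Ly6c2 and the 3 genes nearest to each marker. From each list up to 4 genes with the smallest p for overload in control and up to 2 for genotype under overload are named. Ly6e, Mfap5, Capg, Glipr2 and genes named for being at 0 were chosen after their values were seen. Positions came from the GRCm38 annotation, where 54100 of 54100 identifiers matched. The markers and lists were chosen with earlier results of these data known.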

Additional observations from a re-analysis of the deposited data

How the results depend on the processing

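Of the 10 markers, 7 to 9 passed as lower under overload in control FAPs and 4 to 6 in cdKO FAPs over all alternatives, and 0 passed between genotypes or in the interaction under any of them. It is not stated whether libraries with the same replicate number belong together. Correlations of same-numbered deviations were -0.202 to 0.313, over 0.1 in 7 of 18 pairs, which cannot decide whether the samples are paired. With a replicate block 9 markers passed in control FAPs and 5 in cdKO FAPs, with no marker's call changed. Counts over all genes moved as follows. With DESeq2, 2 genes passed for genotype in sham, 1 for the interaction and 2 for genotype averaged over loads. Without the filter, 702 passed for overload in cdKO, 17 for genotype under overload, 10 for the interaction and 4 for the average. Fitting only the groups compared left 1 for genotype under overload. Thinned to the smallest library, 717 passed for overload in control, 390 in cdKO, 0 for genotype in sham and 2 for the interaction. With the Y-linked covariate, 766 passed for overload in control and 1 for genotype under overload. With each library left out in turn, 1058 to 2413 passed for overload in control, 431 to 1310 in cdKO, 1 to 34 for genotype under overload, 0 to 1 in sham, 0 to 1 for the interaction and 1 to 3 for the average. Values that turned sign had all missed the threshold. With thinning these were Dpp4 for genotype under overload (-0.0794), Dpep1 (-0.0437) and Smoc2 (0.15) for the interaction and Pi16 for the average (-0.0122), and with the covariate Gsn for genotype in sham (0.0224). With the covariate, Pi16 also reached 1.23 for genotype under overload and 1.58 for the interaction, and passed in neither (adjusted p = 0.729 and 0.904, edgeR). With libraries left out, genotype in sham ran from -0.29 to 0.20 for Thy1, -0.29 to 0.0298 for Ly6a, -0.29 to 0.18 for Cd34, -0.22 to 0.0849 for Gsn, -0.41 to 0.0366 for Pi16 and -0.0794 to 0.19 for Islr. The average ran from -0.25 to 0.23 for Dpp4 and -0.0917 to 0.26 for Pi16, and the interaction from -0.24 to 0.0616 for Smoc2, -0.10 to 0.39 for Dpep1 and -0.0358 to 0.81 for Pi16. Overload in cdKO ran from -0.0227 to 0.28 for Ly6a and -0.25 to 0.11 for Ly6c1, and genotype under overload from -0.11 to 0.59 for Pi16. The cause of these moves was not tested. Of the 10 markers Dpp4, with 4 to 30 counts a library, had the largest SE in both overload comparisons (0.43 in cdKO and 0.44 in control).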

Other observations

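Interferon-induced genes, which defend cells against viruses, were lower under overload in the same libraries as the markers. Of 23 tested, 12 fell and 0 rose in cdKO FAPs (median log2 fold change -1.37), and 16 fell and 0 rose in control FAPs (median -1.91). Gbp2, a guanylate-binding protein, fell, at -1.70 ± 0.29 in cdKO FAPs (adjusted p = 0.00037, edgeR) and -2.93 ± 0.30 in control FAPs (adjusted p = 2.85e-07). Irgm1 was at -2.20 ± 0.38 and -3.73 ± 0.40, and Stat2, the nearest profile to Dpp4, was at -1.88 ± 0.37 and -2.73 ± 0.38. The summed level of the list was 1174 to 1283 CPM in cdKO overload and 2421 to 2906 CPM in cdKO sham, and 831 to 1297 CPM in control overload and 3288 to 4425 CPM in control sham. No gene of the list passed between the genotypes or in the interaction.

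The 3 genes nearest in profile to Gsn fell in both genotypes, on the log2 scale with SE. Ifi207 was at -1.99 ± 0.29 in cdKO FAPs and -2.77 ± 0.29 in control FAPs, and Ramp2, which modifies receptors for adrenomedullin, was at -1.93 ± 0.25 and -2.62 ± 0.26. Lrrn4cl was at -1.09 ± 0.29 and -2.61 ± 0.30. Of the genes nearest to Dpep1, Cdkn1c, an inhibitor of the cell cycle, was at -2.15 ± 0.35 and -2.62 ± 0.35, and Gstm1, a glutathione transferase, was at -1.97 ± 0.33 and -2.65 ± 0.34. Cdkn1a, another cell cycle inhibitor and near Smoc2 in profile, was at -1.36 ± 0.28 in cdKO FAPs and -1.76 ± 0.28 in control FAPs. These genes were picked for their likeness to the markers over all 12 libraries, so their direction is no separate support.

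Haemoglobin and other red cell genes summed to 0 to 1.54 CPM in cdKO overload and 7.33 to 129.5 CPM in cdKO sham, and to 12.3 to 283 CPM in control overload and 2.73 to 6.76 CPM in control sham. Muscle stem cell genes summed to 356 to 561 CPM in cdKO overload, 337 to 592 in cdKO sham, 415 to 634 in control overload and 409 to 565 in control sham, and Schwann and nerve genes to 351 to 466, 568 to 682, 329 to 382 and 417 to 608 CPM in the same order. Muscle fibre genes summed to 34.8 to 72.6, 57.3 to 151, 12.98 to 93.0 and 75.2 to 122 CPM. The muscle stem cell sum was mostly Sdc4, at 269 to 561 CPM over the 12 libraries. Pax7 reached only 9.72 CPM, with no count in 2 libraries, and Myod1 had no count in 10. The Schwann and nerve sum held Pmp22 at 179 to 550 CPM, while Sox10 had no count in 11 libraries. The part of these genes in the marker levels was not tested.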
